A study of Mus musculus with 12 samples.

Results

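The 6 transcripts described here encode plasma membrane carriers of amino acids, Slc7a5, Slc3a2, Slc7a6, Slc1a5, Slc38a2 and Slc1a4. They were taken by name from the rows of a count matrix, 6 of its 13886 genes, and followed in germinal center B cells and plasma cells (PC) of 3 mice. The mice were primed with the hapten-carrier antigen NP-KLH in Sigma Adjuvant System and given tamoxifen by gavage, and draining lymph nodes were taken 5 days later, at day 16 of the response. Live cells without IgD and with the eYFP reporter were sorted, so every cell carries that label; the allele that drives it is not given in the sources used here, nor are the strain and age of the mice. PC and other B cells were loaded into separate wells for droplet-based 5' single-cell RNA sequencing, and antibody hashtags marked the mouse of each cell. The count matrix pools the series' 12 libraries and holds 6000 cells.

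The authors' annotation gives 6 states. Dark zone cells (DZ, 3040) divide and mutate their antibody genes, and light zone cells (LZ, 2213) are selected by antigen and T cell help. Cells on the way from the light to the dark zone (LZtoDZ, 165) are in growth, PC (137) secrete antibody, and preMem (396) and prePC (49) are the labels for cells nearest to memory and plasma cells. How cells were assigned is not described in those sources, and the genes behind the authors' activation score are not named. The states were assigned from these same cells, so a test between them is a comparison of groups that expression itself had helped to define.

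Slc7a5 (LAT1) imports large neutral amino acids such as leucine and works only when bound to Slc3a2 (CD98hc), the heavy chain that brings it to the cell surface. Slc7a6 (y+LAT2) uses the same heavy chain and exchanges cationic for neutral amino acids. Slc1a5 (ASCT2) and Slc1a4 (ASCT1) exchange small neutral amino acids, Slc1a5 with glutamine among them, and Slc38a2 (SNAT2) takes up neutral amino acids together with sodium. Leucine and glutamine that enter this way feed protein synthesis and signal to the kinase complex mTORC1. Cells short of amino acids raise several of these carriers through the transcription factor ATF4, which binds amino acid response elements.

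In the GENCODE M21 annotation of GRCm38 the 6 genes lie on 5 chromosomes. Slc7a5 is at chr8:121881150-121907694 on the minus strand, where the protein-coding model Gm20388 overlaps it on the other strand, so its counts depend on the strand setting of the counting, which those sources do not give. Slc7a6 is at chr8:106168857-106198706 (plus), Slc3a2 at chr19:8706882-8723369 (minus), Slc1a5 at chr7:16781340-16798274 (plus), Slc38a2 at chr15:96687392-96699730 (minus) and Slc1a4 at chr11:20302180-20332713 (minus). No other annotated gene overlaps these 5.

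RefSeq promoter windows of 300 bases, 250 before and 50 after the annotated start in GRCm38.p6, were matched for 4 of the 6 genes, Slc1a4, Slc38a2, Slc3a2 and Slc7a6. They were searched on both strands for CACGTG, the E-box bound by Myc, and for TTGCATCA, a core of the amino acid response element (TGATGCAA on the other strand), and the motifs do not overlap each other. CACGTG stood in none of the windows of these 4 genes and in 7.15% of all 32851 windows. TTGCATCA stood in the window of Slc1a4 alone and in 0.895% of all windows. The stretches nearest to the start are shown for the 4 genes so that their letters can be compared: 30 bases ending with the motif in Slc1a4 (chr11:20332710-20332739, minus strand), where the capitals mark the motif whose first base lies 4 bases before the start, and 60 bases before the start in Slc3a2 (chr19:8713898-8713957, minus), Slc38a2 (chr15:96699729-96699788, minus) and Slc7a6 (chr8:106168794-106168853, plus).
Slc1a4: agcctccagcgtgcctcctgcgTTGCATCA
Slc3a2: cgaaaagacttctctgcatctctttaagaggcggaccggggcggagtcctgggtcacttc
Slc38a2: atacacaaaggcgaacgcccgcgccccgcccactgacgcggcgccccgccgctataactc
Slc7a6: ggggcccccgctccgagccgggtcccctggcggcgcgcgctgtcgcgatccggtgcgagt
A match is a description of the letters and not evidence of a bound site. The Slc3a2 start used here, chr19:8713897, lies inside the GENCODE span of that gene and not at its end. Slc7a6 had a second window, with its start at chr8:106168921, which held neither motif and is not shown.

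Levels are counts per 1000000 UMIs (CPM) in the cells of 1 mouse and state, summed and scaled by TMM factors, and were compared with edgeR's quasi-likelihood test with the mouse as a block, adjusted by Benjamini-Hochberg over all genes tested. Sums held 270904 to 10709429 UMIs. The median cell held 6258 UMIs in LZ, 7875 in DZ, 19103 in LZtoDZ and 24018 in PC. Antibody transcripts made up 36.4% of UMIs in PC and 0.817% to 2.96% in other states. In the sums of at least 20 cells, before the filter on low counts, TMM factors were 0.581 to 0.729 in PC and 1.06 to 1.15 elsewhere. The levels used factors over all sums and the tests factors after the filter, so these can differ somewhat. Without TMM factors in the tests the median log2 fold change of all genes between PC and LZ moved from -0.10 to -0.99. The share of called genes that were higher in PC fell from 49.1% to 14.4%. Where the scale changes a PC result, both values are given. Of the PC, 117 carried the second of the 2 number codes in the cell names and 20 the first, and no barcode was shared between the codes. All DZ, LZ and preMem cells carried the first code, as did 162 LZtoDZ and 47 prePC cells. State and code thus largely coincided where PC were compared, and could not be told apart outside those 20 PC. Myeloid markers summed to 1.62 to 5.16 CPM in PC and to 0 to 0.83 CPM in LZtoDZ, and all 8 T and NK cell markers were at 0 in PC and 6 of 8 in LZtoDZ; without cells that held 2 or more UMIs of such markers Slc3a2 gave the same calls.

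**Figure D1:**
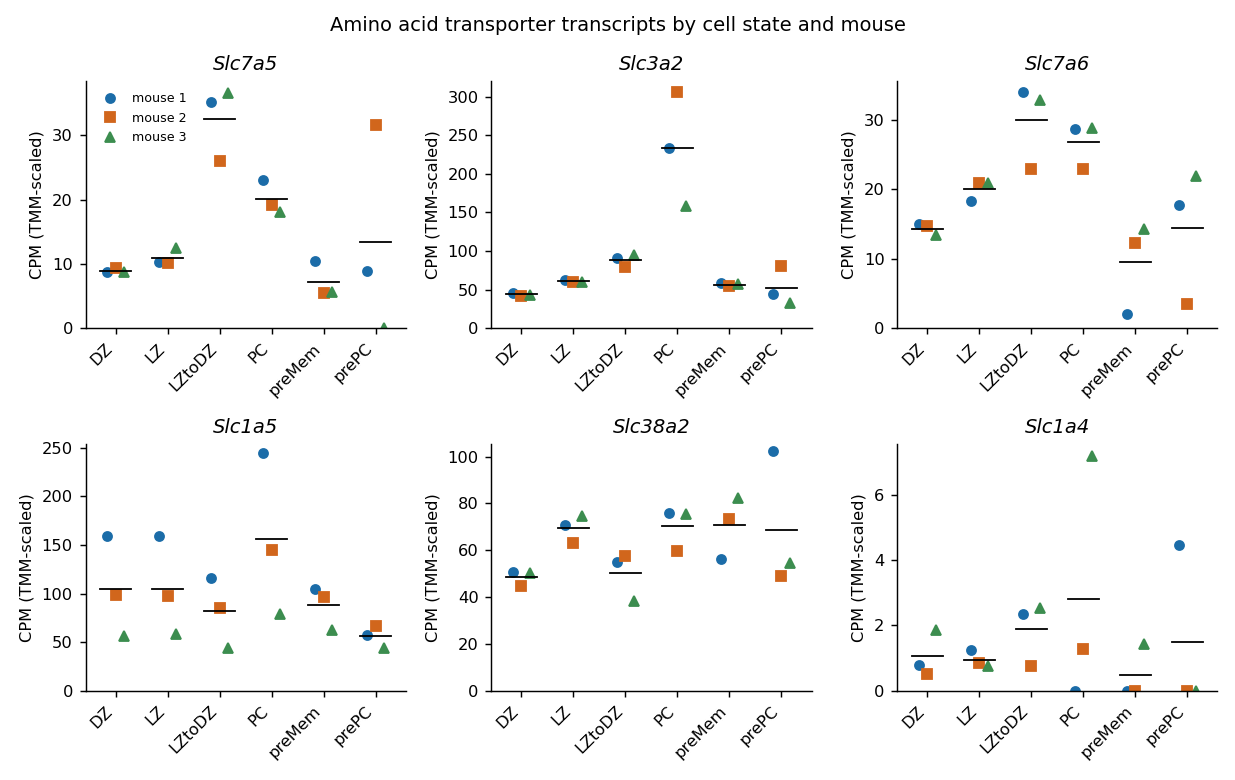
Level of each transcript (y axis, TMM-scaled CPM, separate scale per gene) in 6 cell states (x axis); symbols are the 3 mice and the line is their mean. Slc7a5 is highest in LZtoDZ, Slc3a2 is highest in PC, and the symbols of Slc1a5 keep their order by mouse in 5 of 6 states; prePC points rest on 10 to 22 cells.

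Slc7a5 was higher in the growth state than in LZ or DZ as a whole. Its level in LZtoDZ was 35.2 CPM in mouse 1, 26.0 in mouse 2 and 36.6 in mouse 3, against 10.3, 10.2 and 12.4 CPM in LZ and 8.70, 9.43 and 8.70 CPM in DZ. All 3 mice were higher in LZtoDZ than any mouse in LZ or DZ. The log2 fold change against LZ was 1.54 ± 0.16 (SE; edgeR's adjusted p = 6.6e-06) and against DZ 1.83 ± 0.16 (adjusted p = 1.1e-06). Over 15 other ways of processing the counts the log2 fold change against LZ stayed between 1.31 and 2.38, and it passed the threshold in each of the 15; with equal cell numbers Slc7a5 failed the filter on low counts. The prePC of mouse 2, at 31.5 CPM, lay above the LZtoDZ of that mouse.

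The heavy chain Slc3a2 was higher in LZtoDZ as well, by less. Its level was 91.4, 78.8 and 95.3 CPM in the LZtoDZ of mice 1 to 3, 62.5, 59.7 and 59.7 CPM in LZ and 46.2, 42.3 and 42.9 CPM in DZ. The 3 states did not overlap, with DZ lowest. The log2 fold change of LZtoDZ was 0.55 ± 0.16 against LZ (edgeR's adjusted p = 0.0126) and 1.0 ± 0.16 against DZ (adjusted p = 1.9e-04). The call against LZ was lost without mouse 1 (adjusted p = 0.0803), in cells thinned to an equal depth (0.32, adjusted p = 0.432), with equal cell numbers (adjusted p = 0.127) and in G1 or G2M cells alone (adjusted p = 0.589 and 0.527).

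Slc7a6, which pairs with Slc3a2 too, had 34.0, 23.0 and 32.8 CPM in LZtoDZ, 18.3, 20.9 and 20.9 CPM in LZ and 15.0, 14.7 and 13.4 CPM in DZ. LZtoDZ lay above LZ in every mouse, with mouse 2 of LZtoDZ near the LZ values. This gave a log2 fold change of 0.55 ± 0.19 against LZ (edgeR's adjusted p = 0.031) and 1.03 ± 0.19 against DZ (adjusted p = 6.7e-04). The call against LZ was lost on plain UMI totals (adjusted p = 0.0566), without mouse 1 (0.0964), without mouse 3 (0.23), in thinned cells (0.411), with equal cell numbers (0.385) and in G1 or G2M cells alone (0.924 and 0.384). Against DZ it was lost in thinned cells (0.194) and with equal cell numbers (0.544).

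Slc1a5 and Slc38a2 were lower in LZtoDZ than in LZ. Slc1a5 had 116, 84.9 and 44.2 CPM in the LZtoDZ of mice 1 to 3 and 159, 97.5 and 58.5 CPM in LZ. Mice differed widely and the groups overlapped, but LZtoDZ was lower in 3 of 3 mice, and with the mouse as a block the log2 fold change was -0.35 ± 0.11 (edgeR's adjusted p = 0.0201). Without the block the adjusted p was 0.527, and leaving out mouse 2 (0.0754) or mouse 3 (0.101), equal cell numbers (0.0891) and G1 or G2M cells alone (0.717 and 0.344) also ended the call. In thinned cells the difference was -0.95 (adjusted p = 0.028). In G1 the pooled level on plain totals was 130 CPM in the 17 LZtoDZ cells and 106 in LZ.

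Slc38a2 had 55.1, 57.4 and 38.5 CPM in LZtoDZ, 70.8, 63.3 and 74.7 CPM in LZ and 50.8, 44.6 and 50.4 CPM in DZ. LZ lay above both other states in every mouse. The log2 fold change of LZtoDZ against LZ was -0.51 ± 0.14 (edgeR's adjusted p = 0.00878), and that of DZ against LZ was -0.51 ± 0.10 (adjusted p = 0.00213). Between LZtoDZ and DZ it was 0.00, with an approximate 95% interval of -0.27 to 0.27. Without mouse 3 the difference between LZtoDZ and LZ was -0.24 (adjusted p = 0.204), and in cells thinned to an equal depth of 2000 UMIs it was 0.11 (adjusted p = 0.81). With equal cell numbers it did not pass (adjusted p = 0.213), and in G1 alone it was 0.13 (adjusted p = 0.842), with pooled levels on plain totals of 111 CPM in LZtoDZ and 82.5 in LZ.

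Of the 5 transcripts that could be tested, 3 were thus higher and 2 lower in LZtoDZ than in LZ, where 45.6% of 9230 genes passed the threshold, 22.3% higher and 23.3% lower. Against DZ, 3 were higher and Slc1a5 was lower (-0.36 ± 0.11, edgeR's adjusted p = 0.0188), with 44.3% of genes called, 22% higher and 22.3% lower. That call of Slc1a5 was lost without mouse 2 (adjusted p = 0.0635), without mouse 3 (0.0835), without the block (0.508), with equal cell numbers (0.308) and in S alone (0.0733). Slc1a4 failed the filter on low counts. It had 35 UMIs in all DZ cells, 16 in LZ, 7 in LZtoDZ and 5 in PC, or about 1 to 3 CPM, and no comparison of it was made.

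**Figure D2:**
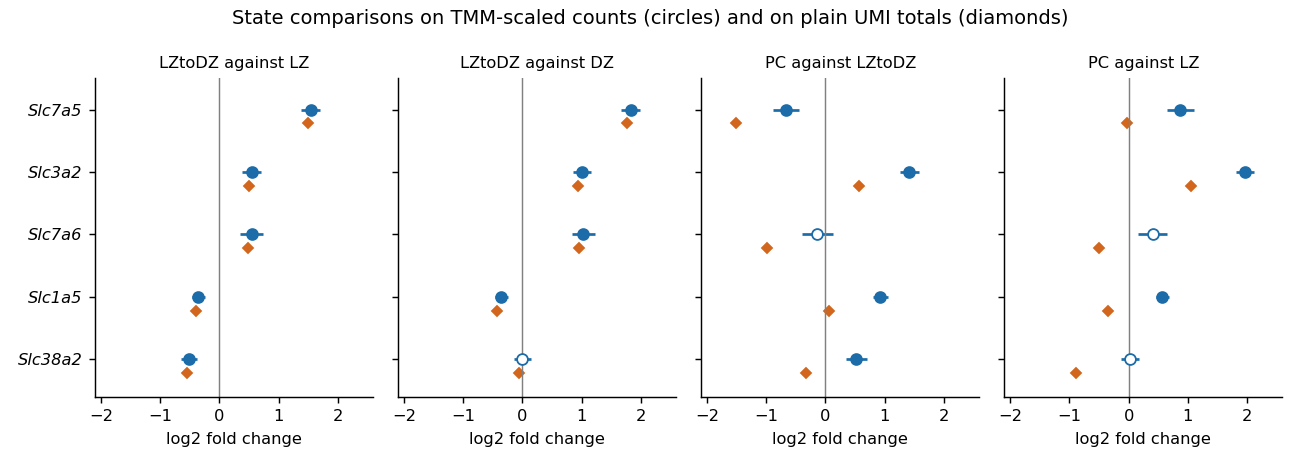
Log2 fold change (x axis) of 5 transcripts (y axis) in 4 state comparisons; circles are TMM-scaled values with the standard error, filled where the adjusted p is under 0.05, and diamonds are values on plain UMI totals. The scales lie close together between LZtoDZ and LZ or DZ, and apart by nearly 1 log2 unit wherever PC are compared.

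In PC the heavy chain Slc3a2 was higher than in LZtoDZ and Slc7a5 was lower. Slc3a2 reached 234, 307 and 158 CPM in the PC of mice 1 to 3. Each of these values was above every LZtoDZ, LZ and DZ value. The log2 fold change of PC was 1.42 ± 0.17 against LZtoDZ (edgeR's adjusted p = 1.1e-05), 1.96 ± 0.15 against LZ (adjusted p = 1.7e-07) and 2.42 ± 0.15 against DZ (adjusted p = 1.9e-08). On plain UMI totals these differences were 0.56, 1.06 and 1.50, and each passed the threshold (the largest adjusted p was 0.00282). With PC of the second code in the cell names left out, 20 PC remained, 3, 11 and 6 in mice 1 to 3. They held 11.4% antibody transcripts and a median of 15979.5 UMIs, against 39.4% and 24606 in PC of the second code. The differences were then -0.23 against LZtoDZ (adjusted p = 0.668), 0.20 against LZ (0.672) and 0.68 against DZ (0.0986), and none passed. The part of the antibody share in this was not tested. The difference from LZtoDZ did not pass in S-phase cells alone either (-0.37, adjusted p = 0.384).

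Slc7a5 had 23.0, 19.1 and 18.0 CPM in PC, below every LZtoDZ value and above every LZ and DZ value on this scale. PC differed by a log2 fold change of -0.67 ± 0.22 against LZtoDZ (edgeR's adjusted p = 0.0223) and 0.87 ± 0.23 against LZ (adjusted p = 0.00547). On plain totals the difference from LZtoDZ was larger, -1.52 (adjusted p = 2.8e-05), and that from LZ was gone, -0.03 (adjusted p = 0.917). The call against LZtoDZ was lost without mouse 1 (adjusted p = 0.073) or mouse 3 (0.194), with DESeq2 (0.0603), at 10 cells per sum (0.0701) and in thinned cells (0.086). The call against LZ was lost without mouse 1 (0.0709) and in thinned cells, where the difference was 0.07 (0.973). In the 20 PC of the first code the differences were -1.44 (adjusted p = 0.147) and -0.05 (0.982).

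Slc7a6 had 28.7, 22.9 and 28.8 CPM in PC, which overlapped LZtoDZ. The log2 fold change against LZtoDZ was -0.14 ± 0.26 with an approximate 95% interval of -0.66 to 0.38, and -0.99 on plain totals (edgeR's adjusted p = 0.00471). Against LZ it was 0.41 (adjusted p = 0.175), and -0.49 (adjusted p = 0.0718) on plain totals.

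The remaining carriers depended on the scale in PC. Slc1a5 had 244, 145 and 79.2 CPM in PC, higher than in the LZtoDZ, LZ or DZ of the same mouse in 3 of 3 mice. Its log2 fold change was 0.93 ± 0.13 against LZtoDZ (edgeR's adjusted p = 3.9e-05) and 0.57 ± 0.11 against LZ (adjusted p = 7.9e-04), but on plain totals these were 0.06 (adjusted p = 0.816) and -0.34 (adjusted p = 0.0194), a change of direction against LZ. Without the mouse block neither passed (adjusted p = 0.115 and 0.296). Slc38a2 had 76.1, 59.8 and 75.6 CPM in PC, and its log2 fold change was 0.52 ± 0.18 against LZtoDZ (adjusted p = 0.0309), against -0.33 (adjusted p = 0.143) on plain totals. Against LZ it was 0.02 (adjusted p = 0.936), and -0.88 (adjusted p = 1.8e-04) on plain totals. In the PC of the first code Slc1a5 passed against LZtoDZ (0.79, adjusted p = 0.0311) but not against LZ (0.34, adjusted p = 0.346), and Slc38a2 did not pass against LZtoDZ (0.32, adjusted p = 0.64). In thinned cells Slc1a5 did not pass against LZ (0.26, adjusted p = 0.582), and in S alone it did not pass against LZtoDZ (0.35, adjusted p = 0.28). The Slc38a2 call against LZtoDZ was also lost without mouse 1 (0.106) or mouse 3 (0.294), with equal cell numbers (0.0733), in S alone (-0.11, 0.849) and in thinned cells (-0.93, 0.202).

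By TMM scaling PC therefore had 3 of the 5 transcripts higher and 1 lower than LZtoDZ, where 49.5% of genes were called (23.2% higher and 26.3% lower), and 1 higher and 2 lower on plain totals. Against LZ, 3 were higher and none was lower by TMM scaling, with 53.4% of genes called (26.2% higher and 27.2% lower), and 1 was higher and 2 were lower on plain totals. Against DZ all 5 were higher by TMM scaling, with 54.1% of genes called (26.4% higher and 27.7% lower); on plain totals Slc3a2 was higher, Slc1a5 (-0.36) and Slc38a2 (-0.39) were lower, and Slc7a5 and Slc7a6 did not pass. Without the second code none of the 5 passed against DZ, and in thinned cells Slc3a2 alone did. Against DZ, equal cell numbers ended the calls of Slc38a2 (adjusted p = 0.232) and Slc7a6 (0.523), as did leaving out mouse 1 for Slc38a2 (0.0774) and mouse 3 for Slc7a6 (0.0745), and Slc1a5 did not pass without the block (0.305). Slc3a2 was the transcript whose rise in PC passed on both scales in all 3 comparisons, and in none of them without the second code.

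A ratio of 2 transcripts within the same cells does not depend on the scale. There were 0.385, 0.330 and 0.384 UMIs of Slc7a5 per UMI of Slc3a2 in the LZtoDZ of mice 1 to 3, 0.165, 0.171 and 0.208 in LZ, 0.188, 0.223 and 0.203 in DZ, and 0.0982, 0.0622 and 0.114 in PC. LZtoDZ lay above and PC below LZ and DZ, with no overlap. Within PC the ratio differed by phase and code. Pooled over mice it was 0.0648 in G1 (25 UMIs of Slc7a5 and 386 of Slc3a2), 0.151 in S and 0.151 in G2M (8 and 53 in each), and 0.0794 in the PC of the second code. In the 20 PC of the first code it was 0.154 (4 and 26 UMIs). By mouse it was 0.333 (1 and 3 UMIs), 0.0625 (1 and 16) and 0.286 (2 and 7) in mice 1 to 3. Mice 1 and 3 lay above LZ there, but on counts too small to order single mice. An exact two-sided permutation test over 3 pairs cannot give a p under 0.25, so the ratios are given without one. For Slc7a6 the ratio to Slc3a2 was 0.291 to 0.372 in LZtoDZ, 0.293 to 0.350 in LZ and 0.312 to 0.347 in DZ, which overlapped. In PC it was 0.0747 to 0.182, below all of them. Within PC it was 0.0699 in G1, 0.283 in S and 0.226 in G2M. By code it was 0.101 in PC of the second and 0.269 in PC of the first (7 and 26 UMIs). Under the first code mice 1 to 3 had 0.667 (2 and 3 UMIs), 0.188 (3 and 16) and 0.286 (2 and 7). Mouse 1 lay above every LZtoDZ, LZ and DZ value, again on counts too small to order single mice. These are ratios of transcripts and say nothing about the number of proteins on the surface.

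**Figure D3:**
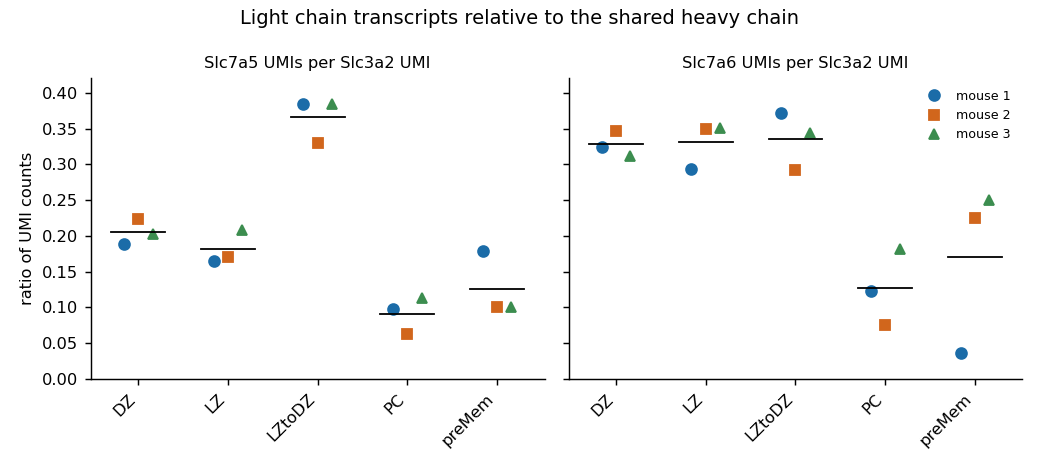
UMIs of Slc7a5 (left) and Slc7a6 (right) per UMI of Slc3a2 (y axis) in 5 states (x axis), one symbol per mouse with the mean as a line. The Slc7a5 ratio is 0.330 to 0.385 in LZtoDZ and 0.0622 to 0.114 in PC, whereas the Slc7a6 ratio of LZtoDZ lies among those of LZ and DZ.

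Per cell, where the total RNA of the cell counts too, growth and secretion cells both carried more transporter transcripts. LZtoDZ held 0.698, 0.607 and 0.879 UMIs of Slc7a5 per cell in mice 1 to 3 and PC 0.348, 0.259 and 0.303, against 0.0774 to 0.100 in LZ. For Slc3a2 it was 1.81, 1.84 and 2.29 UMIs per cell in LZtoDZ and 3.54, 4.16 and 2.67 in PC, against 0.470 to 0.492 in LZ. With PC of both codes included, the order of LZtoDZ and PC was thus opposite for the light and the heavy chain in all 3 mice. Within the first code it was not opposite. Pooled over mice, the 20 PC of that code held 1.3 UMIs of Slc3a2 and 0.2 of Slc7a5 per cell. The 162 LZtoDZ cells of that code held 1.98 and 0.710, and the 117 PC of the second code 3.98 and 0.316. By phase, PC held 4.24 UMIs of Slc3a2 per cell in G1, 2.21 in S and 2.41 in G2M. LZtoDZ held 1.41, 2.17 and 1.86. The cell with the most Slc3a2 among PC held 27 UMIs, and among LZtoDZ 11.

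The share of cells with a UMI followed depth. Slc7a5 was seen in 51.5% ± 5.23 (SD, n = 3) of LZtoDZ, 25.3% ± 2.53 of PC and 7.73% ± 0.862 of LZ, but the median LZtoDZ cell had 19103 UMIs and the median LZ cell 6258. After each cell was thinned to 2000 UMIs, which left out 20 LZ, 14 DZ and 9 preMem cells, the shares were 10.9% ± 5.39 in LZtoDZ, 2.16% ± 0.356 in LZ and 1.59% ± 1.52 in PC. LZtoDZ was higher than LZ in 3 of 3 mice (exact two-sided sign-flip p = 0.25, the smallest possible). At 1000 UMIs the share in LZtoDZ was 2.15%, from 3 cells, so the depth limits this measure. No state was known to lack the gene, and the share from free RNA was not measured.

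Slc3a2 in PC varied with the authors' cell cycle call. On plain totals it was 150, 249 and 170 CPM in the G1 PC of mice 1 to 3 (91 cells), 94.3, 61.5 and 68.7 CPM in S (24 cells) and 115, 64.3 and 31.9 CPM in G2M (22 cells). G1 lay above S and G2M in every mouse. Pooled over mice the level was 197 CPM in G1 (Poisson 95% interval 178 to 217), 72.2 in S (54.1 to 94.4) and 81.5 in G2M (61.0 to 107), intervals that cover counting error only. With immunoglobulin transcripts left out of the totals the values were 378, 83.1 and 113 CPM.

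The code in the cell names moved with the phase, since 84 of the 117 PC of the second code were in G1 and 7 of the 20 of the first. Within G1, Slc3a2 was 198 CPM in the 84 PC of the second code and 175 CPM in the 7 of the first, and within S it was 84.2 CPM in 16 PC and 40 CPM in 8. Under the first code the G1 value came from mouse 2 (195.5 CPM, 6 cells); mouse 1 had no G1 cell, and the 1 of mouse 3 held no Slc3a2 UMI against 47.7 CPM in S, so that order was not seen in more than 1 mouse. Compared in S phase alone, with 6 to 11 PC per mouse, PC did not differ from LZtoDZ beyond the error (log2 fold change -0.37, edgeR's adjusted p = 0.384). Compared in G1 alone, PC exceeded LZ by a log2 fold change of 2.72 (adjusted p = 6.4e-16). These phase and code splits were chosen after the values were seen.

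**Figure D4:**
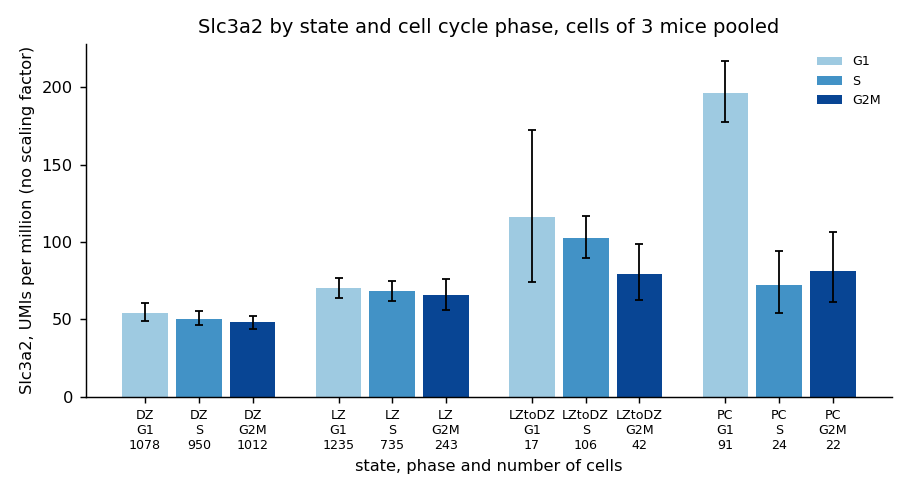
Slc3a2 (y axis, CPM without scaling factors) by state and cell cycle phase (x axis, with the number of cells of 3 mice pooled); bars are pooled values and error bars Poisson 95% intervals for counting error. Phases of DZ and of LZ lie close together, whereas PC reach 197 in G1 and 72.2 in S.

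Slc7a5 was lower in PC than in LZtoDZ within S phase too, at -1.39 (edgeR's adjusted p = 0.0382), from 8 UMIs in 24 PC. On plain totals Slc7a5 was 5.24, 6.15 and 22.9 CPM in S-phase PC of mice 1 to 3. In S-phase LZtoDZ it was 38.35, 27.0 and 30.7 CPM, so mouse 3 differed least. Its level in PC was 12.7 CPM in G1, 10.9 in S and 12.3 in G2M on plain totals, with overlapping Poisson intervals, and 24.5, 12.55 and 17.0 CPM with immunoglobulin transcripts left out of the totals. Slc1a5 in PC was 82.5 CPM in G1 (interval 70.3 to 96.2), 99.4 in S (77.9 to 125) and 143 in G2M (115 to 175). Without immunoglobulin transcripts these were 159, 115 and 198 CPM, so the lowest phase changed from G1 to S with the scale. Mouse 2 differed on plain totals, with 78.3 CPM in G1, 108 in S and 76.0 in G2M.

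Few of these transcripts passed a test between cell cycle phases within the germinal center. In DZ cells none of the 5 differed between S and G1, where 35.2% of genes did, and 1 differed between G2M and G1, where 35.3% did. That was Slc38a2, with 65.9, 56.9 and 66.1 CPM in the G1 cells of mice 1 to 3 and 54.7, 47.1 and 49.9 CPM in G2M. The phases did not overlap, and the log2 fold change was -0.37 ± 0.14 (edgeR's adjusted p = 0.0367). Leaving out any mouse raised the adjusted p to between 0.0661 and 0.123, and without the mouse block it was 0.0706. In LZ cells none of the 5 differed between S and G1 or between G2M and G1, with 29.4% and 30.2% of genes called. The phase effects of DZ and LZ were compared directly, and none of the 5 passed for S (0.175% of genes called) or for G2M (1.66% called; lowest adjusted p 0.419).

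Since 64.2% of LZtoDZ and 33.2% of LZ cells were called S, the states were compared in S alone. Slc7a5 was 39.0, 28.1 and 31.6 CPM in S-phase LZtoDZ of mice 1 to 3 and 12.8, 16.7 and 12.8 CPM in S-phase LZ. The groups did not overlap, and LZtoDZ was higher by a log2 fold change of 1.24 ± 0.26 (edgeR's adjusted p = 4.8e-04). Slc3a2 was 109, 102 and 106 CPM against 72.2, 62.9 and 69.5 CPM, a log2 fold change of 0.66 ± 0.11 (adjusted p = 3.4e-05). Slc1a5 (-0.46, adjusted p = 0.00377) and Slc38a2 (-0.49, adjusted p = 0.0288) were lower, and Slc7a6 did not pass (0.48, adjusted p = 0.0672). The background in S was 37% of genes. The Slc38a2 call was lost without mouse 1 (adjusted p = 0.108), without mouse 3 (0.577) and without cells with RNA of other cell types (0.0586), and the Slc1a5 call without the block (0.572). With 5 to 7 LZtoDZ cells per mouse in G1 and 6 to 19 in G2M, Slc7a5 passed in both (2.38, edgeR's adjusted p = 0.00118, and 1.31, adjusted p = 0.01), and of the other 4 only Slc38a2 in G2M did (-0.75, adjusted p = 0.0364).

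Some cells annotated LZ or DZ lay in the authors' cluster that holds most LZtoDZ. The 64 LZ cells there had 14.6, 54.6 and 60.8 CPM of Slc7a5 in mice 1 to 3 on plain totals, and the 2149 other LZ cells 11.4, 9.46 and 11.9. Every mouse was higher in that cluster, mouse 1 by little, and pooled they had 46.3 CPM against 34.8 in the LZtoDZ cells of the cluster. For Slc3a2 the values were 78.1, 96.6 and 115 against 70.0, 66.4 and 65.8 CPM. In the 31 DZ cells of that cluster Slc7a5 was 13.7, 26.3 and 15.1 CPM, from 11 UMIs, against 9.96, 10.6 and 9.99 in other DZ cells. Its pooled interval, 9.57 to 34.3 CPM, covered the 10.2 of other DZ cells. Slc3a2 was 34.1, 35.0 and 40.2 CPM, from 21 UMIs, against 53.8, 49.4 and 49.9, lower in 3 of 3 mice. Its pooled interval, 22.65 to 55.9 CPM, covered the 50.6 of other DZ cells. Clusters were made from these cells' expression, so these values are a description.

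LZ cells with a Myc transcript were compared with LZ cells without one, at 2000 UMIs per cell, since Myc marks recently selected cells. Slc7a5 was 21.9, 42.6 and 7.52 CPM in Myc-positive cells of mice 1 to 3 and 8.98, 8.09 and 14.0 CPM in Myc-negative cells. It was higher in mice 1 and 2 and lower in mouse 3. The Myc-positive sums held 84000, 86000 and 130000 UMIs in all, so these levels rest on very few UMIs of Slc7a5. It failed the filter on low counts there. Of the 4 transcripts tested none passed, where 1.93% of 5650 genes did. The largest differences were 0.67 ± 0.53 for Slc7a6 (edgeR's adjusted p = 0.773) and 0.64 ± 0.28 for Slc38a2 (adjusted p = 0.392).

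DZ cells had less of 3 of the 5 transcripts than LZ cells, with 20.6% of genes called, 8.97% higher and 11.6% lower. Besides Slc38a2 these were Slc3a2 (-0.46 ± 0.14, edgeR's adjusted p = 0.031) and Slc7a6 (-0.48 ± 0.14, adjusted p = 0.0246). In G1 cells alone neither passed (adjusted p = 0.143 and 0.521), nor did Slc38a2 (0.0921). The Slc3a2 call was also lost without mouse 1 (0.127), without mouse 3 (0.0563) and without the block (0.0504), and the Slc7a6 call without mouse 2 (0.139), without mouse 3 (0.275) and in thinned cells (0.425). With equal cell numbers none of the 3 passed (0.353 for Slc3a2, 0.922 for Slc7a6 and 0.681 for Slc38a2). Slc7a5 (-0.29, adjusted p = 0.153) and Slc1a5 (0.00, adjusted p = 0.993) did not pass in all cells.

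In preMem the transporters were at or below the LZ level. Slc7a6 was 2.09, 12.2 and 14.2 CPM in mice 1 to 3, below every LZ value, with a log2 fold change of -0.95 ± 0.33 (edgeR's adjusted p = 0.0409), from 20 UMIs in all. The call was lost without any one of the mice (adjusted p = 0.135, 0.122 and 0.102), in thinned cells (0.0928), with equal cell numbers (0.348) and in G1 alone (0.147). The other 4 did not pass, and 31.7% of genes were called, 16.4% higher and 15.4% lower. Slc7a5 was 10.5, 5.43 and 5.69 CPM from 13 UMIs, with a log2 fold change of -0.70. Its approximate 95% interval, -1.33 to -0.07, is narrower than the test allows (edgeR's unadjusted p = 0.0637, adjusted p = 0.147). In prePC, with 10 to 22 cells per mouse, Slc7a5 was 8.90, 31.5 and 0 CPM and Slc3a2 44.5, 80.6 and 32.8, highest in mouse 2 for both; the 0 of mouse 3 allows up to 36.0 CPM on plain totals, the level of 3 UMIs. Myeloid markers reached 355 CPM in the prePC of mouse 1, and their part in the prePC values was not tested.

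Other carriers, synthesis enzymes and tRNA synthetases were counted in the same comparisons. Whether they moved with the 6, which did not move as a set, was not tested. Among 13 other plasma membrane and lysosomal transporters that could be tested, 2 were higher and 3 lower in LZtoDZ than in LZ (median log2 fold change -0.40, all genes -0.08). Slc7a1, a carrier of arginine and lysine, was higher (31.3 against 22.5 CPM, 0.46, edgeR's adjusted p = 0.0441), as was Slc38a1, a glutamine carrier (105 against 84.6 CPM, 0.31, adjusted p = 0.0255), but neither passed on plain totals (adjusted p = 0.0776 and 0.121), nor did Slc38a1 without mouse 3 (0.127) or Slc7a1 without any one of the mice (0.149, 0.0517 and 0.116). Slc15a4, a lysosomal histidine and peptide carrier, was lower (36.0 against 82.9 CPM, -1.26, adjusted p = 4.0e-06). Against LZtoDZ, 4 of these 13 were higher and 4 lower in PC, and 2 higher and 6 lower on plain totals. Slc7a7 (y+LAT1), a further partner of Slc3a2, rose from 2.81 ± 0.85 to 28.3 ± 5.97 CPM (SD, n = 3; log2 fold change 3.30 ± 0.38, adjusted p = 9.9e-06), and Slc7a1 fell to 10.3 CPM (-1.56, adjusted p = 0.00101); without the second code neither passed (adjusted p = 0.137 and 0.168).

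Of 20 cytosolic aminoacyl-tRNA synthetases, which load amino acids on tRNA, 19 were higher and none lower in LZtoDZ than in LZ (17 higher on plain totals; median log2 fold change 0.91). Rars was among the largest, with 118 against 50.0 CPM (1.24 ± 0.07, edgeR's adjusted p = 7.9e-08). In PC 5 of the 20 were higher and 7 lower than in LZtoDZ (none higher and 16 lower on plain totals), and Nars, which uses asparagine, was the largest of the higher ones at 301 against 162 CPM (0.91, adjusted p = 2.4e-05; 0.07 on plain totals, adjusted p = 0.658, and 0.12 without the second code, adjusted p = 0.813). Against LZ, 13 of the 20 were higher in PC and none lower, and on plain totals 5 were higher and 9 lower.

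Of 18 genes of the integrated stress response and of amino acid synthesis, 10 were higher and 2 lower in LZtoDZ than in LZ (median 0.71). Asns, asparagine synthetase, was 57.6 against 19.2 CPM (1.56 ± 0.14, edgeR's adjusted p = 1.7e-06) and Phgdh, the first enzyme of serine synthesis, 423 against 157 CPM (1.43, adjusted p = 2.9e-07). Atf4 itself did not pass (0.16, adjusted p = 0.153), and Ddit4, an inhibitor of mTORC1, was lower (-2.08, adjusted p = 2.9e-05). In PC 4 were higher and 4 lower than in LZtoDZ, and 1 and 9 on plain totals. Pycr1, which makes proline, rose from 2.73 to 93.0 CPM (5.07 ± 0.31, adjusted p = 2.3e-08), Atf4 was higher by 0.76 (adjusted p = 3.0e-05; -0.08 on plain totals, adjusted p = 0.608) and Asns lower by 0.96 (-0.96, adjusted p = 0.00133). Without the second code Atf4 (0.20, adjusted p = 0.711) and Asns (-0.26, adjusted p = 0.768) did not pass, and Pycr1 had no test.

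Of 10 genes of glutamine and glutamate use 7 were higher and none lower in LZtoDZ than in LZ, among them Cad, which starts pyrimidine synthesis (1.68, edgeR's adjusted p = 9.2e-07). In PC 3 were higher and 3 lower than in LZtoDZ, and 2 and 8 on plain totals, with Gfpt1, the entry to hexosamine synthesis for glycoproteins, higher (2.23, adjusted p = 1.7e-06) and Ctps, which makes CTP, lower (-1.45, adjusted p = 1.6e-04; -1.21 without the second code, adjusted p = 0.0881). Of 22 genes of mTORC1 and amino acid sensing 4 were higher and 5 lower in LZtoDZ than in LZ, and of 9 mitochondrial amino acid carriers 2 were higher and none lower. All 11 secretion markers were higher in PC than in LZtoDZ, and 8 of 10 growth markers were higher in LZtoDZ than in LZ.

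The genes whose levels ran most alike were sought over the 16 sums per mouse and state of at least 20 cells, among 5090 genes with a mean of at least 20 CPM. These sums share states and mice, so the coefficients are descriptions. Slc7a5 ran closest to Mrps5 (Pearson r = 0.96), a mitochondrial ribosomal protein, Eif3i, a translation initiation factor (0.95), and Mif (0.94). Slc3a2 ran closest to Ergic1 (0.96), Dad1 (0.96) and Bsg (0.96), of which Dad1 is a subunit of the oligosaccharyltransferase and Bsg a chaperone of monocarboxylate carriers. Slc7a6 ran closest to Paf1 (0.95), Farsa (0.91), a phenylalanyl-tRNA synthetase subunit, and Aldh18a1 (0.91), an enzyme of proline synthesis. Slc38a2 ran closest to Birc2 (0.91), Stx8 (0.84) and Nek7 (0.81). For Slc1a5 the highest coefficient was 0.804, and 2 of its 3 nearest were immunoglobulin light chain segments (Igkv1-133, 0.804, and Igkv3-1, 0.72) with Clptm1 (0.78) between them. Between Slc7a5 and Slc3a2 themselves r was 0.58.

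Slc1a5 differed between mice more than between states. Its level was highest in mouse 1 and lowest in mouse 3 in DZ (160, 98.4 and 56.2 CPM), LZ, LZtoDZ, PC and preMem (105, 96.4 and 62.6 CPM), and prePC differed only in that mouse 2 was highest (57.9, 66.5 and 43.7 CPM). The log2 ratio of mouse 1 to mouse 3 was 1.50 in DZ and 1.44 in LZ. For Slc3a2 it was 0.11 and 0.07, and for Slc38a2 0.01 and -0.08. Among 4758 genes that averaged 20 CPM or more over these 6 sums, immunoglobulin genes left out, the median absolute log2 ratio was 0.067 in DZ and 0.083 in LZ. Ranked by the smaller of the 2 ratios where both had the same sign, Slc1a5 came first of the 4758, and the ranking was made after its values were seen.

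**Figure D5:**
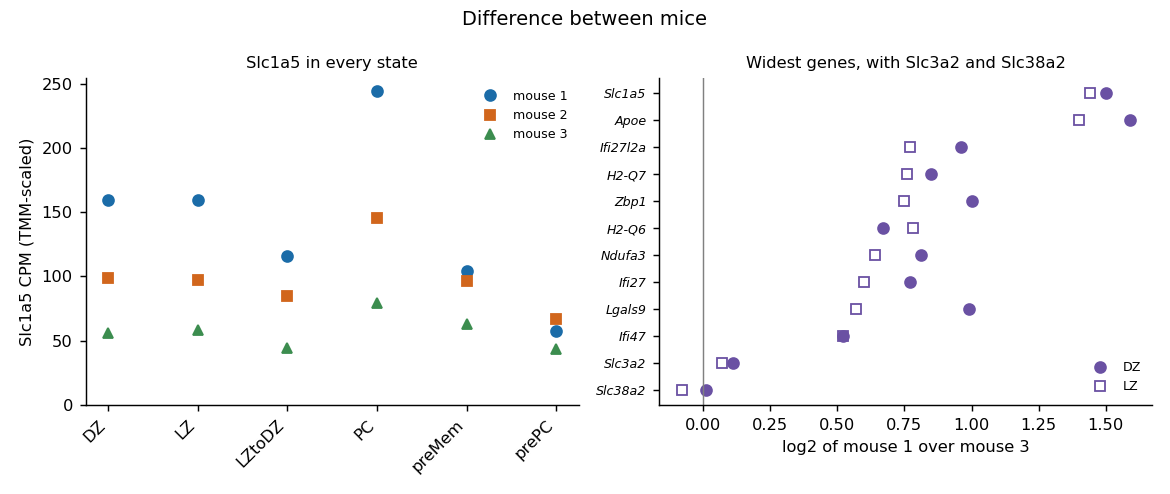
Left, Slc1a5 (y axis, TMM-scaled CPM) in 6 states (x axis) with one symbol per mouse. Right, log2 ratio of mouse 1 to mouse 3 (x axis) in DZ (circles) and LZ (squares) for the 10 genes with the widest difference and for Slc3a2 and Slc38a2 (y axis). Mouse 1 lies above mouse 3 in every state, and the ratio of Slc1a5 is 1.50 in DZ and 1.44 in LZ.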

How the data were processed

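Raw UMI counts per gene and cell were deposited by the authors for 6000 cells, together with a table of the mouse, state, cluster and cell cycle phase of each cell and an activation score computed by the authors, whose genes are not named. The submitters' processing notes list Cell Ranger and Seurat, and mm10 and GRCm38 as builds, without versions or roles. Filters on cells and doublets are not described there. The 12 libraries, in 6 groups, share 1 matrix, so the replicates are the 3 mice, not libraries or cells.

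Counts were summed per mouse and state, with at least 20 cells per sum, which kept prePC of 1 mouse. One fit over all sums used TMM factors, filterByExpr and edgeR 4.0.16 (quasi-likelihood, R 4.3.3) with the mouse as a block, Benjamini-Hochberg adjustment over all genes and a threshold of 0.05. Sums of 1 mouse share the animal, and their pairing was checked. The correlation of deviations from state means was 0.122 in the median of 30 same-mouse pairs (-0.136 in the lowest) and -0.0593 in that of 60 other pairs, on 2701 genes. On simulated counts for LZtoDZ against LZ (9230 genes) the fit recovered 75% of 100 genes changed 2-fold and 95% of 100 changed 4-fold, with 7 false calls. The simulated counts had 1 mean per gene in all states, apart from the 200 changed genes, and no mouse effect. They therefore do not give the error rates of the fit in the data, where far more genes differed between states. Approximate intervals of a log2 fold change are 95% limits from the standard error and a normal distribution. They can be narrower than edgeR's test allows.

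DESeq2 1.42.0, other filters, no block, thinned or equal cell numbers (33 per sum), leaving out each mouse, and sums without immunoglobulin genes or without cells with 2 or more UMIs of other cell types' markers were the alternatives tried. UMI totals without TMM factors, single phases (at least 5 cells) and leaving out the second cell name code with no minimum were chosen after seeing the data. The members and gene lists were chosen with earlier results of these data known. Named genes are the 6 members and, per list, up to 3 with the largest change past the threshold and at least 20 CPM in the higher group; Atf4, Asns in PC and the genes of the mouse ranking fall outside this rule and were chosen after their values were seen.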

Additional observations from a re-analysis of the deposited data

How the results depend on the processing

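Counts of genes called were recomputed under each alternative; plain UMI totals, thinned or equal cells and the cell name code were tried in the state comparisons alone. Cells thinned to 2000 UMIs gave 1369 genes in LZtoDZ against LZ, 1364 in LZtoDZ against DZ, 1454 in PC against LZtoDZ, 1648 in PC against LZ, 1702 in PC against DZ, 689 in DZ against LZ and 1185 in preMem against LZ, and equal cell numbers gave 1641, 1504, 2645, 2164, 2221, 112 and 599 in the same order, with fewer genes tested in both. G1 cells alone gave 1461 and G2M cells alone 1644 in LZtoDZ against LZ. One phase alone gave 2544 in LZtoDZ against DZ, 2314 in PC against LZtoDZ, 779 in DZ against LZ and 1393 in preMem against LZ, and leaving out the second cell name code gave 1250, 1376 and 1346 in PC against LZtoDZ, LZ and DZ. DZ against LZ gave 2914 without immunoglobulin genes. The S effect of DZ minus LZ gave 103 genes with DESeq2, 118 without a filter, 100 without immunoglobulin genes and 5 with no replicate block, and the G2M effect 238, 319 and 299 under the first 3. Myc-positive against Myc-negative LZ cells gave 28 with DESeq2, 202 without a filter and 69 with no replicate block. Leaving out 1 mouse gave 811 to 1321 in DZ against LZ, 1809 to 2346 in preMem against LZ, 2069 to 2706 for S and 2140 to 2732 for G2M against G1 in DZ, 1590 to 2248 for S against G1 in LZ, 4 to 13 and 45 to 73 for the DZ minus LZ effects of S and G2M, and 16 to 94 in the Myc comparison.

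These values of the transporters changed direction. On plain UMI totals they were -0.328 for Slc38a2 in PC against LZtoDZ, -0.026, -0.342 and -0.881 for Slc7a5, Slc1a5 and Slc38a2 in PC against LZ, and -0.361, -0.391 and -0.027 for Slc1a5, Slc38a2 and Slc7a6 in PC against DZ. In LZtoDZ against LZ, G1 cells alone gave 0.125 for Slc38a2, and G2M cells alone -0.047 for Slc7a1. In thinned cells they were 0.114 for Slc38a2 in LZtoDZ against LZ, -0.928 for it in PC against LZtoDZ, and -0.331 and -0.113 for Slc38a2 and Slc7a6 in PC against DZ. In S phase alone PC against LZtoDZ gave -0.371 for Slc3a2 and -0.111 for Slc38a2, and without the second code -0.227 for Slc3a2 and, against LZ, -0.047 for Slc7a5. Equal cell numbers gave 0.180 for Slc7a6 in DZ against LZ. Of the other genes named, PC against LZtoDZ gave -0.077 for Atf4, -0.690 for Cad and -0.694 for Phgdh on plain totals and 0.231 for Slc15a4 without the second code. The cause was not tested. A value that passed under neither setting was given no direction. With no replicate block the calls of Slc1a5 between states were lost, as was that of Slc3a2 in DZ against LZ (adjusted p = 0.0504) and of Slc38a2 between phases of DZ. The 3 mice bound the precision throughout. With the mouse as a block, the p-values measure variation left after the mean difference between mice is removed, counting error included. They do not cover the spread between mice itself, or the choice of scale or setting.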

Other observations

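The genes that differed most between mouse 1 and mouse 3 were looked at by position and by role. Of the 10 with the widest difference in DZ and LZ alike, 3 lie on chromosome 7, which holds 6.83% of the 4758 genes ranked: Slc1a5 (RefSeq start 16781334 in GRCm38.p6), Apoe, an apolipoprotein (19696244; log2 ratio 1.59 in DZ and 1.40 in LZ), and Ndufa3, a subunit of mitochondrial complex I (3617347; 0.81 and 0.64). Ndufa3 was high in mouse 1 and alike in mice 2 and 3 (230, 130 and 131 CPM in DZ), whereas Slc1a5 and Apoe (403, 210 and 134 CPM in DZ) were lowest in mouse 3. The 4 other ranked genes that start within 200000 bases of Slc1a5 had ratios nearer to 0: 0.01 and -0.03 for Ap2s1, -0.13 and -0.18 for Strn4, -0.20 and -0.01 for Prkd2 and -0.01 and -0.10 for Calm3. The other 7 of the 10 were Ifi27l2a, H2-Q7, Zbp1, H2-Q6, Ifi27, Lgals9 and Ifi47, among them genes known to answer interferon (Ifi27l2a, 0.96 and 0.77; Zbp1, 1.0 and 0.75). In H2-Q7 and H2-Q6 mouse 2 was as high as or higher than mouse 1 (46.7 against 40 and 60.5 against 49.4 CPM in DZ). With 1 animal per value no test was made, and the list was chosen on these values.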
